A study of Mus musculus with 48 samples.

Results

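Csf1, Il7, Il15 and Il12a encode cytokines that form and maintain blood and immune cells, and they were followed here as 4 of the 248 endogenous genes of a NanoString nCounter mouse inflammation panel. They were taken by name, and all 4 had a probe and passed the count filter that left 196 genes tested. The panel counts fluorescent barcodes that hybridise to single RNA molecules, without amplification, in RNA from synovium and an equal mass of articular cartilage and subchondral bone. All 48 knee joint samples came from males of the C57BL/6 strain, given as 3 months of age. In 3 groups of 12 the knees had been loaded from 8 weeks of age, with 500 compressive cycles per session at a force of 9 N, in 5 sessions a week over 4 weeks, as a model of post-traumatic osteoarthritis. The siMMP13 group received nanoparticles with an antibody to type II collagen that carried a small interfering RNA (siRNA) against Mmp13, and the siNEG group received the same carrier with a negative control siRNA. The loaded untreated group received neither, and 12 samples came from healthy joints that were neither loaded nor treated. Nothing in the labels says whether samples of a group came from separate animals. The spread behind each p-value is thus that between samples, and part or all of it may be technical.

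Csf1 encodes the growth factor that binds the receptor CSF1R and keeps monocytes, macrophages and bone-resorbing osteoclasts alive, and mice without it have too few osteoclasts and dense bone. Il7 is made by stromal cells of marrow and lymphoid tissue and sustains lymphocyte precursors and T cells. Il15 supports natural killer cells and memory T cells through receptor chains it shares with interleukin-2, and its transcript is found in many tissues, muscle among them. Il12a encodes the smaller subunit of interleukin-12, which has to pair with the product of Il12b before it can drive interferon-gamma production, and which can also pair with EBI3 to form interleukin-35.

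The RefSeq promoter table of GRCm38.p6 held 2 of the 4 genes, Csf1 and Il12a, and not Il7 and Il15. The 250 bases before the annotated start of Csf1 (chr3:107760470-107760719, minus strand) and before the first annotated start of Il12a (chr3:68690394-68690643, plus strand) are shown because these were the members with the largest differences between loaded and healthy joints. Capitals mark matches to the NF-kB motif GGGANNNNCC on either strand, some of which overlap.
Csf1: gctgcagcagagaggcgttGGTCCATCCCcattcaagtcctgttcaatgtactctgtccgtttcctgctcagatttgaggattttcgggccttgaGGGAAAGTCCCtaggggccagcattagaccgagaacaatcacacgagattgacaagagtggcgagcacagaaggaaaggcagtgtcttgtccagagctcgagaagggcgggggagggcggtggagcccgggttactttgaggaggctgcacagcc
Il12a: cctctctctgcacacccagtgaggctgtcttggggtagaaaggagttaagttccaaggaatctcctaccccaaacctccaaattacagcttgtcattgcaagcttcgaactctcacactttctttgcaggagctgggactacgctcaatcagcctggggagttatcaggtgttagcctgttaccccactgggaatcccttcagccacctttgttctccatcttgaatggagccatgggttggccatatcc
The Csf1 window held 3 matches and this Il12a window 0, while 17.6% of 32851 promoter windows of the same length held at least 1. The window before the second annotated start of Il12a held 2 overlapping matches within GGGACGGTCCC. The interferon-stimulated motif GAAANNGAAA (2.98% of windows), the AP-1 motif TGANTCA (6.75%) and the ETS motif GAGGAA (23.3%), searched on both strands, had no match in any of the 3 windows. A match is a description of the letters, and binding was not measured.

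Total gene counts per sample ran from 36415 to 302377 and differed between groups. Medians were 148380.5 in siMMP13, 116985 in siNEG, 162623.5 in loaded untreated and 113746.5 in healthy joints. The 8 negative control probes set a detection limit in each lane (their mean plus 2 SD) of 7.70 to 24.1 counts. Values below are normalized counts, scaled by the geometric mean of 6 housekeeping genes, and different probes are not compared in level. In 4 libraries the housekeeping genes went against each other far more than elsewhere, with a spread of 0.78 to 1.40 log2 units against at most 0.59 in the other 44. These were siMMP13 replicates 7, 8 and 11 and healthy replicate 2, and the results that rest on them are given with and without them. The labelled tissue could not be checked, because Col2a1, Acan, Prg4, Col10a1 and Bglap had no probe among those analysed here, nor did Mmp13 or the receptor genes Csf1r, Il7r, Il2rg, Il2rb, Il15ra, Il12rb1 and Il12rb2. In a mixed tissue, fewer cells of a type and less RNA per cell cannot be told apart.

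Il12a was the member called lower than in healthy joints in each loaded group. Il15 was called lower in the siRNA groups only under other settings, given below. Il12a ranged from 31.1 to 94.6 normalized counts in siMMP13 joints (median 70.1) and from 54.7 to 90.8 in siNEG joints (median 75.5). The Il12a range was 52.4 to 97.7 in loaded untreated joints (median 60.8), against 72.4 to 124 in healthy joints (median 90.5). The ranges overlapped, and no loaded sample reached the highest healthy value, which was that of healthy replicate 7 alone. Below the lowest healthy sample lay 7 of 12 siMMP13, 5 of 12 siNEG and 9 of 12 loaded untreated samples, and below the healthy median lay 11 of 12 in each group. Group means were 65.0 ± 18.7 in siMMP13, 75.7 ± 10.1 in siNEG, 65.8 ± 14.3 in loaded untreated and 93.2 ± 14.2 in healthy joints (SD, n = 12 each).

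By edgeR's quasi-likelihood test with Benjamini-Hochberg adjustment over all 196 genes, Il12a was lower than in healthy joints in each loaded group. The log2 fold change was -0.52 ± 0.15 SE with siMMP13 (adjusted p = 0.00045), -0.31 ± 0.08 with siNEG (adjusted p = 0.035) and -0.51 ± 0.10 without treatment (adjusted p = 0.00064). Over the 36 loaded samples together it was -0.44 ± 0.08, a fold of 0.735, with 33 of 36 below the healthy median (adjusted p = 0.00017). Of all tested genes, 49.5% were called in either direction with siMMP13, 50% with siNEG and 46.4% without treatment. A lower call was made for 14.8% of all tested genes with siMMP13, 12.2% with siNEG, 14.8% without treatment and 19.4% over all loaded samples. These comparisons share the 12 healthy samples. Without the 4 libraries that stand apart, Il12a had log2 fold changes of -0.42 (adjusted p = 0.0024), -0.32 (0.0131) and -0.52 (0.000135) in siMMP13, siNEG and loaded untreated joints. The siNEG call ended under 4 other settings (adjusted p up to 0.140) and without any 1 of 6 samples, namely healthy replicates 7 and 12 and siNEG replicates 1, 2, 5 and 6 (edgeR, adjusted p up to 0.0764).

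**Figure D1:**
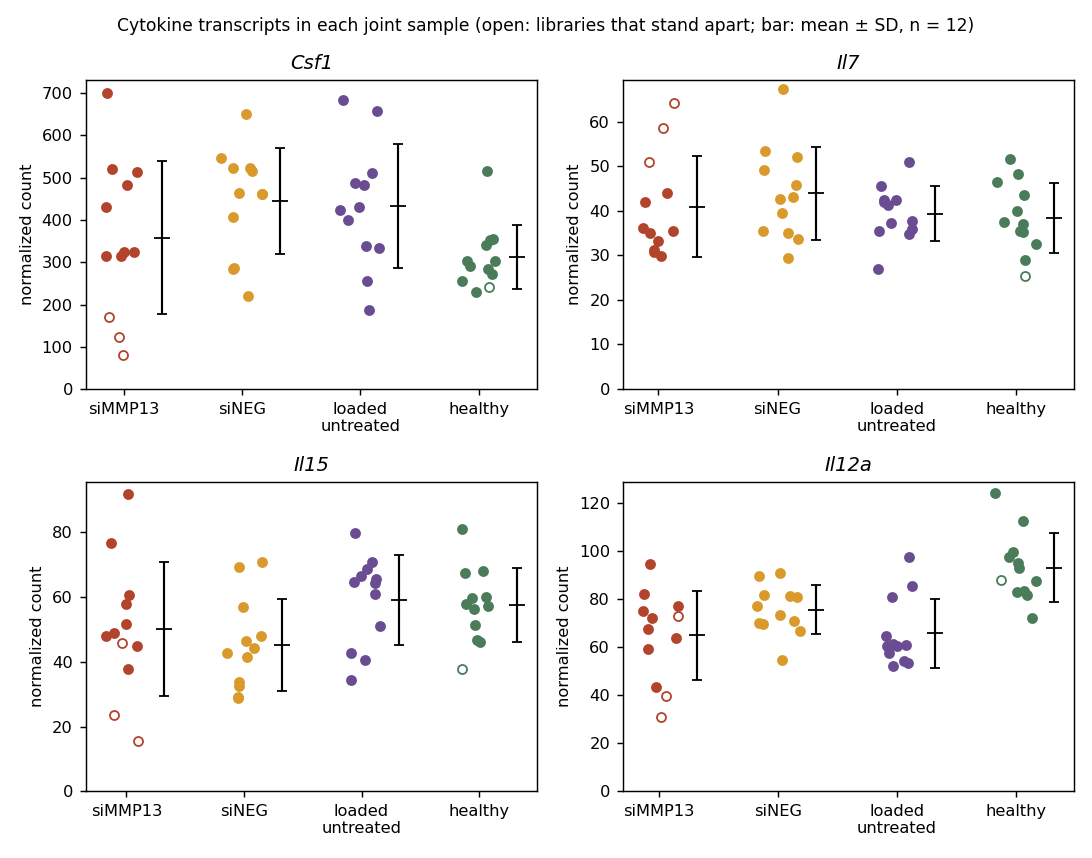
Normalized counts (vertical axes, from 0) of Csf1, Il7, Il15 and Il12a in each of 12 samples per group, with the group mean and SD as a bar beside the points. Il12a sits highest in healthy joints (72.4 to 124), Csf1 spreads more widely in loaded than in healthy joints, and the open points are the 4 libraries that stand apart.

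The partner subunit Il12b was at background. It was above the negative controls in 0 of 12 siMMP13, 2 of 12 siNEG, 1 of 12 loaded untreated and 0 of 12 healthy samples, with raw counts of 1 to 17. Ifng, the main target of interleukin-12, was above them in 0 of 12 siMMP13, 0 of 12 siNEG, 4 of 12 loaded untreated and 6 of 12 healthy samples, and it did not pass the count filter. Il12a itself was above the negative controls in 48 of 48 samples, with raw counts of 16 to 157. Il12a was thus measured in joints where Il12b was mostly not detectable at this depth.

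Csf1 did not pass the test in any comparison over all libraries. It ranged from 79.8 to 701 normalized counts in siMMP13 joints (median 324), from 220.2 to 652 in siNEG joints (median 463) and from 186 to 685 in loaded untreated joints (median 427), against 229 to 517 in healthy joints (median 297). All groups overlapped, with 2 of 12 siMMP13, 5 of 12 siNEG and 2 of 12 loaded untreated samples above the highest healthy one. Below the lowest healthy sample lay 3 of 12 siMMP13, 1 of 12 siNEG and 1 of 12 loaded untreated samples. The coefficient of variation was 50.7% in siMMP13, 28.2% in siNEG and 34.0% in loaded untreated joints, against 24.5% in healthy joints. Without the libraries that stand apart it was 30.3% in siMMP13 and 24.0% in healthy joints.

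The log2 fold change of Csf1 against healthy joints was 0.20 ± 0.28 SE with siMMP13 (adjusted p = 0.46), 0.51 ± 0.16 with siNEG (adjusted p = 0.055) and 0.47 ± 0.18 without treatment (adjusted p = 0.079). Over all loaded samples it was 0.39 ± 0.14, with 28 of 36 above the healthy median (adjusted p = 0.067). Higher calls were made for 34.7%, 37.8%, 31.6% and 40.8% of tested genes in these 4 comparisons. The 3 siMMP13 libraries that stand apart held the 3 lowest Csf1 values of their group, 79.8, 122 and 169.8 normalized counts. Once the 4 libraries were left out, the siMMP13 mean was 436 ± 132 (SD, n = 9), and Csf1 passed in every loaded group. The log2 fold change was then 0.45 with siMMP13 (adjusted p = 0.038), 0.48 with siNEG (0.020) and 0.44 without treatment (0.035), and 0.46 over all loaded samples (0.00825). Leaving out healthy replicate 7 alone, the highest healthy sample, also gave calls with siNEG (0.60), without treatment (0.56) and over all loaded samples (0.48; edgeR, adjusted p from 0.0243 to 0.0404). Leaving out siMMP13 replicate 7, 8 or 11, siNEG replicate 6, 8 or 12, or loaded untreated replicate 6 gave a call in at least 1 comparison (adjusted p from 0.0264 to 0.0485).

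**Figure D2:**
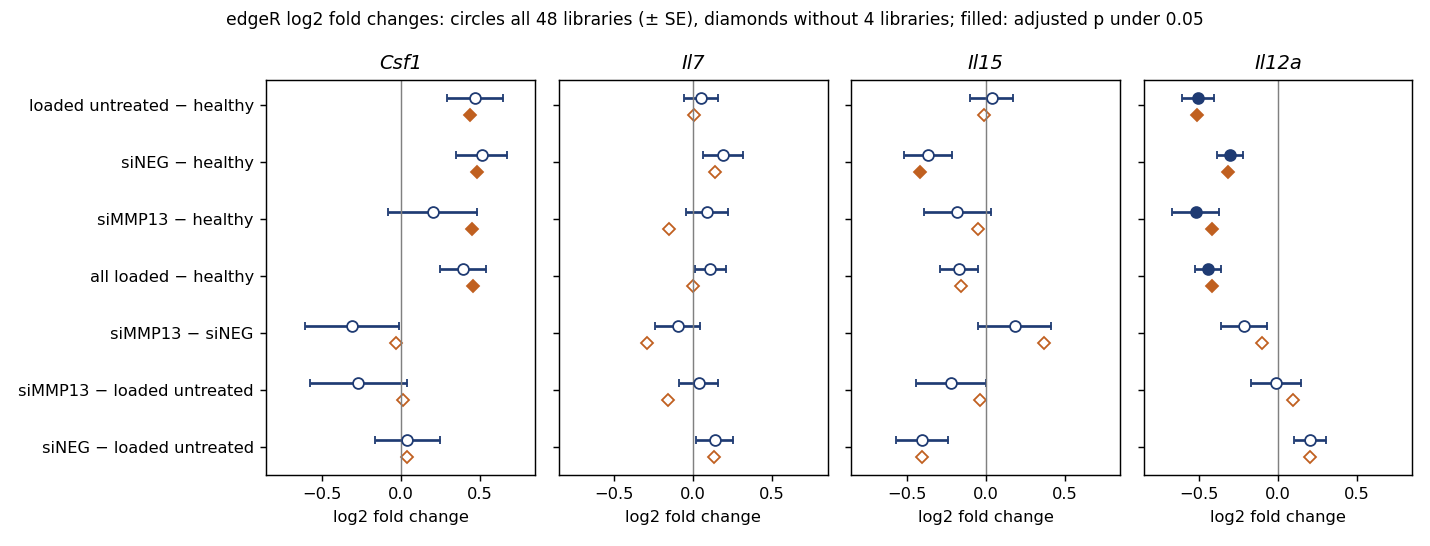
edgeR log2 fold changes (horizontal axes) of each member in 7 comparisons, as circles with SE for all 48 libraries and as diamonds without the 4 libraries that stand apart, with filled symbols for an adjusted p under 0.05. Il12a is filled in all 4 comparisons with healthy joints, whereas Csf1 is filled there only without the 4 libraries.

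Il15 was lowest with siNEG. It ranged from 15.6 to 91.6 normalized counts in siMMP13 joints (median 48.4), from 28.7 to 70.6 in siNEG joints (median 43.5) and from 34.3 to 79.6 in loaded untreated joints (median 64.5), against 37.8 to 80.9 in healthy joints (median 57.6). Of the 12 siNEG samples 10 lay below the healthy median and 4 below the lowest healthy sample. The siNEG difference from healthy joints was -0.36 ± 0.15 SE on the log2 scale (edgeR, adjusted p = 0.085), and that from loaded untreated joints was -0.40 ± 0.16 (adjusted p = 0.51, unadjusted p = 0.029). With siMMP13 it was -0.18 ± 0.21 against healthy joints (adjusted p = 0.40), and loaded untreated joints lay at 0.04 ± 0.13 (adjusted p = 0.86). Without the 4 libraries, the siNEG difference from healthy joints passed at -0.42 (edgeR, adjusted p = 0.020) and the siMMP13 difference was -0.05 (0.78). It also passed without siNEG replicate 4 (-0.43, adjusted p = 0.0469) or siNEG replicate 10 (-0.42, adjusted p = 0.0495). Il15 was above the negative controls in 47 of 48 samples, the exception being siMMP13 replicate 7 with a raw count of 8.

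Muscle transcripts also varied widely between joints. Myl2, which encodes a myosin light chain of heart and slow muscle, had medians of 286 in siMMP13, 265 in siNEG and 39.7 in loaded untreated joints, against 49.2 normalized counts in healthy joints, with single samples from 10.7 to 2198. With log2 Myl2 as a covariate, the siNEG difference of Il15 from healthy joints was -0.33 (edgeR, adjusted p = 0.17). The summed level of Myl2, Fxyd2 and Ppp1r12b ran from 121 to 2443 normalized counts in siMMP13, 185 to 1129 in siNEG, 145 to 861 in loaded untreated and 142 to 1042 in healthy joints. Of these 3 genes, 1 fell over all loaded samples, Fxyd2, which encodes a sodium pump subunit (-0.78 ± 0.28 SE, edgeR adjusted p = 0.0030). The part of muscle in the Fxyd2 level was not tested. Myl2 was not called over all loaded samples (0.87 ± 0.61, adjusted p = 0.21). With siMMP13 against healthy joints, Myl2 was higher (1.68 ± 0.85, adjusted p = 0.044) and Fxyd2 lower (-0.97 ± 0.32, adjusted p = 0.0040).

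Il7 was called in none of the 7 comparisons. It ranged from 29.9 to 64.2 normalized counts in siMMP13 joints (median 35.8), from 29.4 to 67.3 in siNEG joints (median 42.9) and from 26.9 to 50.8 in loaded untreated joints (median 39.5), against 25.4 to 51.6 in healthy joints (median 37.2). Its log2 fold change against healthy joints was 0.09 ± 0.13 SE with siMMP13, 0.19 ± 0.13 with siNEG and 0.05 ± 0.11 without treatment (edgeR, adjusted p = 0.566, 0.225 and 0.765). In contrast to Csf1, the 3 highest Il7 values of the siMMP13 group, 64.2, 58.5 and 50.9, were those of the libraries that stand apart, and without them the siMMP13 mean was 35.3 ± 4.9 (SD, n = 9). Il7 was above the negative controls in 48 of 48 samples, at raw counts of 18 to 72.

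None of the 4 members was called between the loaded groups. With siMMP13 against siNEG, log2 fold changes were -0.31 ± 0.30 SE for Csf1, -0.10 ± 0.14 for Il7, 0.19 ± 0.23 for Il15 and -0.22 ± 0.15 for Il12a (edgeR, adjusted p from 0.30 to 0.67), where 6.12% of tested genes were called (4.59% lower, 1.53% higher). After the 4 libraries were left out they were -0.03, -0.29, 0.37 and -0.10 (adjusted p from 0.15 to 0.96). With siMMP13 against no treatment, Csf1 had -0.27 ± 0.31, Il7 0.04 ± 0.12, Il15 -0.22 ± 0.22 and Il12a -0.02 ± 0.16 (edgeR, adjusted p from 0.54 to 0.98; 3.57% of genes called, 1.53% lower and 2.04% higher). Without the 4 libraries these became 0.01, -0.16, -0.04 and 0.10. With siNEG against no treatment, Csf1 had 0.04 ± 0.20, Il7 0.14 ± 0.11 and Il12a 0.20 ± 0.10, beside the Il15 value given above (1.53% of genes called, 0.51% lower and 1.02% higher). The 4 libraries are in neither of these groups. The unadjusted p was under 0.05 for 1 of these 12 differences, that of Il15 between siNEG and loaded untreated joints, and the DESeq2 Wald test called 0 of the 12. Among the groups, only the healthy one was separated by a call for Il12a. The loaded groups had no fixed order, as siMMP13 lay below loaded untreated joints by mean (65.0 and 65.8) but above by median (70.1 and 60.8), and above by mean without the libraries that stand apart (70.6 and 65.8).

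The ratio of 2 members within a sample does not depend on the scaling. The log2 ratio of Il12a to Csf1 raw counts was -2.30 ± 0.76 in siMMP13, -2.51 ± 0.47 in siNEG and -2.66 ± 0.66 in loaded untreated joints, against -1.72 ± 0.30 in healthy joints (SD, n = 12 each). In each loaded group 9 of 12 samples lay below the lowest healthy ratio of -2.08. The 3 siMMP13 samples above it were the libraries that stand apart, and without them the group mean was -2.60. Il12a relative to Il7 averaged 0.65 ± 0.75, 0.81 ± 0.40 and 0.73 ± 0.32 in siMMP13, siNEG and loaded untreated joints, against 1.29 ± 0.35 in healthy joints. Without the libraries that stand apart the siMMP13 mean was 0.98, and its difference from healthy joints was -0.26, against -0.64 with them. In siMMP13 joints 12 of 12 lay below the healthy median ratio, and 11 of 12 did in each of the other loaded groups.

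The Il15 to Csf1 ratio was lowest with siNEG. It averaged -2.74 ± 0.43 in siMMP13, -3.30 ± 0.57 in siNEG and -2.83 ± 0.37 in loaded untreated joints, against -2.43 ± 0.27 in healthy joints. The siMMP13 difference from healthy joints was -0.31 with all libraries and -0.51 without those that stand apart. All 12 siNEG samples lay below the healthy median ratio and 7 below the lowest healthy ratio. Il12a relative to Il15 averaged 0.44 ± 0.53 in siMMP13, 0.79 ± 0.35 in siNEG and 0.17 ± 0.45 in loaded untreated joints, against 0.71 ± 0.35 in healthy joints, and its siMMP13 mean was 0.32 without the libraries that stand apart. Ratios were described and not tested.

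**Figure D3:**
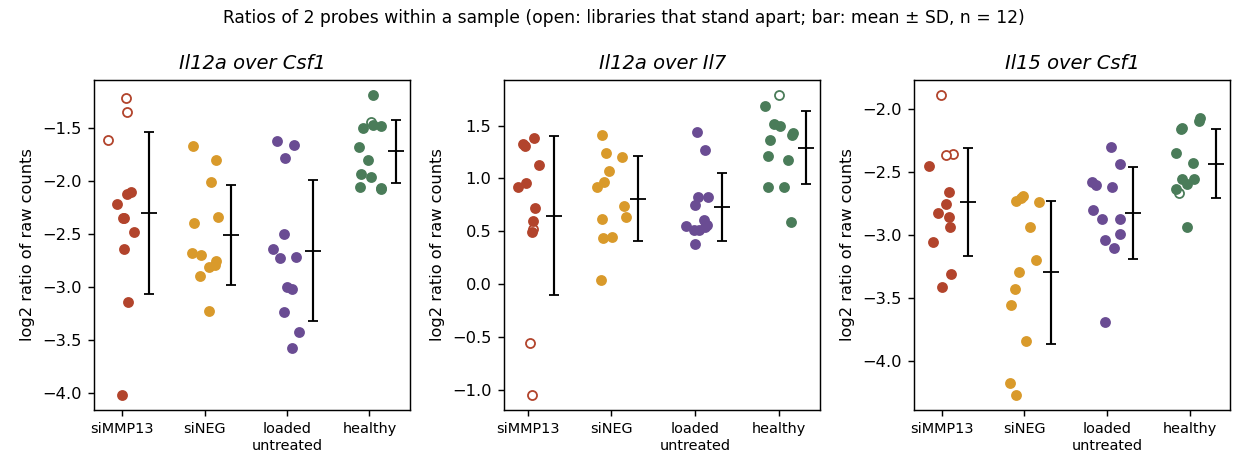
Log2 ratio of raw counts of 2 members in the same sample (vertical axes) for 12 samples per group, with mean and SD as a bar. The Il12a to Csf1 ratio of 9 of 12 samples in each loaded group lies below every healthy sample, and the 3 highest siMMP13 points are open, being libraries that stand apart.

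The 4 scalings of the libraries gave different calls for Il15, while Csf1 and Il7 passed under none of them. TMM scaling, which balances all genes in place of the housekeeping genes, moved log2 fold changes by a median of -0.19 with siMMP13, -0.25 with siNEG and -0.23 without treatment against healthy joints. Over all genes it called 45 higher and 58 lower without treatment, where housekeeping scaling called 62 and 29. It called 52 higher and 59 lower with siMMP13 (68 and 29), 51 and 64 with siNEG (74 and 24), and 51 and 72 over all loaded samples (80 and 38). Il12a was lower in all loaded groups under TMM scaling too, by -0.72, -0.57 and -0.75 in siMMP13, siNEG and loaded untreated joints. Il15 then passed with siMMP13 (-0.39, adjusted p = 0.015) and siNEG (-0.61, adjusted p = 0.00033). Csf1 had -0.04, 0.25 and 0.23 under TMM scaling in siMMP13, siNEG and loaded untreated joints (adjusted p from 0.22 to 0.86).

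**Figure D4:**
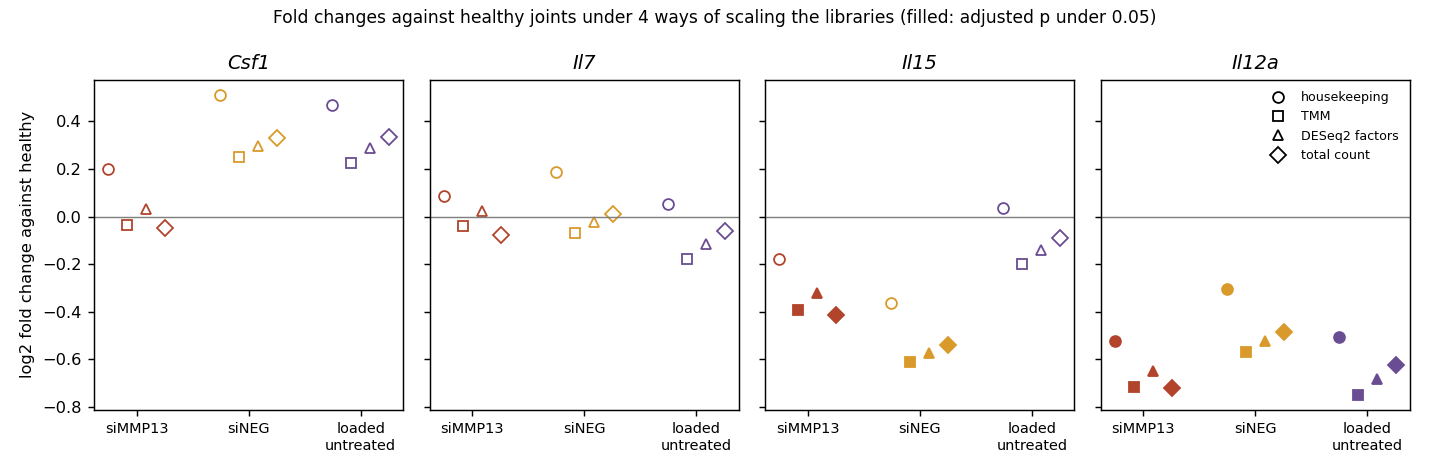
Log2 fold change against healthy joints (vertical axis) of each member in the 3 loaded groups under 4 library scalings, shown by symbol shape, with filled symbols for an adjusted p under 0.05. Il12a is filled under all 4 scalings in every group, Il15 is filled in the siRNA groups except under housekeeping scaling, and Csf1 and Il7 are open throughout.

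The other cytokines of this kind on the panel were almost all at background. Of 17 such genes, among them Csf2, Csf3, Il2, Il3, Il4, Il5, Il9 and Tslp, only Il18 passed the count filter. Csf2, the granulocyte and macrophage growth factor, was above the negative controls in 0 of 48 samples and Tslp, an epithelial cytokine, in 14 of 48. Il18, an inducer of interferon-gamma that acts together with interleukin-12, was not called over all loaded samples (0.18 ± 0.14 SE, edgeR adjusted p = 0.28).

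Genes of the cells and pathways these cytokines serve were counted over all loaded against healthy joints. There edgeR called 60.2% of tested genes (40.8% higher and 19.4% lower), and the median log2 fold change of all genes was 0.15. Of 6 tested genes linked to interleukin-12 and interferon-gamma, 3 rose and 1 fell (median 0.45). Cxcl10 (2.40 ± 0.37 SE) and Cxcl9 (1.59 ± 0.20), chemokines induced by interferons, were higher, while Il18rap, an interleukin-18 receptor subunit gene, was lower (-0.55 ± 0.13, with 35 of 36 samples below the healthy median). Of 15 interferon response genes 14 rose and 0 fell (median 1.80), with Oas1a at 1.87 ± 0.22 and Ifit3 at 2.38 ± 0.34, both antiviral effector genes. Il15, which interferons are known to induce, was not called in the same samples under housekeeping scaling (-0.17 ± 0.12, edgeR adjusted p = 0.31). It was called lower over these samples under 4 of 18 alternative settings.

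Of 13 mononuclear phagocyte genes, the cells that depend on Csf1, 7 rose and 3 fell (median 0.38). C3ar1, the complement C3a receptor gene (1.67 ± 0.33 SE), and Arg1, the arginase gene (2.40 ± 0.48), were higher. Mrc1, the mannose receptor gene, was lower (-0.36 ± 0.10, with 36 of 36 samples below the healthy median), as was Retnla, a marker gene of alternatively activated macrophages (-2.40). Their summed level had medians of 22447 in siMMP13, 17029 in siNEG and 17919 in loaded untreated joints, against 18364 normalized counts in healthy joints, and the ranges overlapped. Of 5 tested lymphocyte and antigen presentation genes 4 fell and 0 rose (median -0.31). These were Ltb, a lymphotoxin gene (-0.83 ± 0.11, with 36 of 36 samples below the healthy median), the homing receptor gene Ccr7 (-0.52 ± 0.15), Cd4, which marks helper T cells (-0.31 ± 0.12), and H2-Eb1, a class II antigen-presenting chain gene (-0.24 ± 0.13). By group, 2 of the 5 fell with siMMP13, 3 with siNEG and 4 without treatment, where 14.8%, 12.2% and 14.8% of all tested genes were called lower. Without the 4 libraries that stand apart, 2 fell and 1 rose with siMMP13, and 3 fell with siNEG and 4 without treatment. With siMMP13 over all libraries, H2-Eb1 was at 0.019 (edgeR, adjusted p = 0.896) and Cd4 at -0.14 (adjusted p = 0.467) against healthy joints. Over all libraries, H2-Eb1 was also higher with siMMP13 than in loaded untreated joints (0.44, edgeR adjusted p = 0.0270). The summed level of the 9 genes of this list with a probe ran from 1486 to 1939.6 normalized counts in siMMP13 and 1193 to 1819 in siNEG joints. It ran from 1096 to 1787 in loaded untreated and 941 to 2730.5 in healthy joints. Medians of this sum were 1774 in siMMP13, 1420 in siNEG and 1315 in loaded untreated joints, against 1872 in healthy joints. Cd40lg and Fasl, defining genes of activated T cells, were above the negative controls in 1 and 0 of 48 samples.

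All 5 granulocyte and marrow genes fell over the loaded samples (median -0.52). Among them were Cxcr4, the marrow retention receptor gene (-0.52 ± 0.10 SE), and Ccr3, the eosinophil receptor gene (-0.75 ± 0.13). By group, 3 of the 5 fell with siMMP13, 4 with siNEG and 4 without treatment, where 14.8%, 12.2% and 14.8% of all tested genes were called lower. Without the 4 libraries that stand apart, 5 fell with siMMP13, 4 with siNEG and 4 without treatment. The summed level of the 5 genes, in which genes with high counts weigh most, had medians of 4900 in siMMP13, 4544 in siNEG and 4339 in loaded untreated joints. The healthy median was 6710 normalized counts. The sums ran from 2200.2 to 6638 in siMMP13, 3257 to 7009 in siNEG, 2564 to 6359 in loaded untreated and 3211 to 7806 in healthy joints. Over all loaded samples, Il12a was lower in the same comparison as these lymphocyte and marrow genes, and the part of such cells in its level was not tested. Over all loaded samples without the 4 libraries, the interferon-gamma list had 4 genes higher and 1 lower, and the interferon response list 14 and 0. Phagocyte genes had 8 and 5, lymphocyte genes 0 and 4 and granulocyte genes 0 and 5. With all libraries, 40.8% of all tested genes were called higher and 19.4% lower. These shares by direction were not counted without the 4 libraries.

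Likeness to other genes was taken within groups. After each group's mean was removed, Spearman's rho was taken over the 48 samples between a member and the 195 other tested genes, as a description, since all points share their library scaling. Csf1 was most like Ccl5, a chemokine gene (rho = 0.86), followed by the complement gene Cfb (0.81), the hypoxia factor gene Hif1a (0.81), the interferon regulator gene Irf7 (0.80) and the G protein gene Gnb1 (0.80). Csf1 and Ccl5 had a rho of 0.82 without the 4 libraries and 0.78 under TMM scaling. Il15 was most like the adaptor gene Myd88 (0.79), and was also like the complement genes C1qa (0.74) and C1qb (0.73) and the apoptosis inhibitor gene Birc2 (0.72). Under TMM scaling Il15 had a rho of 0.57 with Myd88, 0.45 with C1qa, 0.44 with C1qb and 0.43 with Birc2. Myd88 stayed at rank 1 there, and the other 3 genes moved to ranks 9, 10 and 14.

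Il12a and Il7 had weaker relations. Il12a was most like Ltb (0.57), followed by Birc2 (0.50), Hmgb1, Cd55 and Mapk14 (0.48 to 0.49), and Ltb was also lower in each loaded group, at -0.84 ± 0.17 SE, -0.82 ± 0.15 and -0.82 ± 0.12 in siMMP13, siNEG and loaded untreated joints. Il7 was most like the lipoxygenase gene Alox12 (0.59), the adaptor gene Tradd (0.57), the thromboxane receptor gene Tbxa2r (0.57), Alox15 (0.53) and the chemokine gene Ccl19 (0.52). For Il7 and Alox12 the rho was 0.48 without the 4 libraries. Among the members, Csf1 and Il15 varied together most (0.58, and 0.29 under TMM scaling). Il7 had a rho of -0.30 with Csf1 (-0.22 without the 4 libraries, -0.49 under TMM scaling). Il12a had a rho of 0.32 with Il15 (0.12 under TMM scaling), and its relations to Csf1 (0.12, and -0.17 under TMM scaling) and Il7 (-0.093, and 0.062) changed sign with the scaling.

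**Figure D5:**
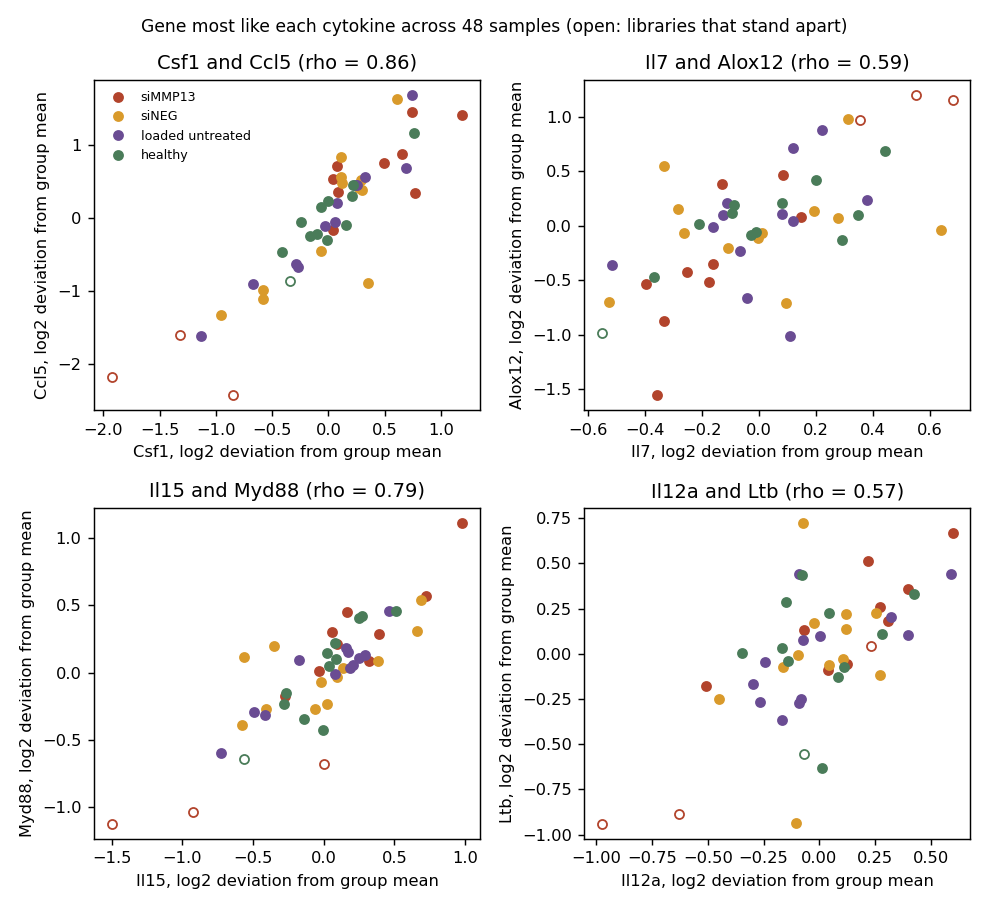
Each panel sets a member (horizontal axis) against the gene most like it (vertical axis), both as log2 normalized counts minus the group mean, for 48 samples coloured by group. The Csf1 and Ccl5 points form the tightest band (rho = 0.86), and the open siMMP13 points lie at its lower end and at the upper right of the Il7 panel.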

How the data were processed

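Per the labels' protocols, tissue was homogenized, and total RNA was extracted with a commercial kit and measured on the nCounter inflammation panel. The deposited values are whole-number counts per probe. Normalization before deposit is not given in the sources used here, and control probes were still present. Groups came from the sample titles. For scaling, 6 housekeeping genes (Tubb5, Pgk1, Hprt, Gusb, Gapdh and Cltc) were combined as a geometric mean per sample. Genes had to exceed 20 counts in 12 or more samples, and those left were tested in 1 fit of all 48 samples with the quasi-likelihood test of edgeR 4.0.16 (R 4.3.3), adjusted by Benjamini-Hochberg and called at an adjusted p under 0.05. Standard errors (SE) come from log2(normalized count + 1). The pipeline was tested on simulated data. The members and lists were chosen with earlier results of these data known. The rule for named genes took the 4 members, up to 4 genes of each list with the smallest p over all loaded samples, the 5 genes most like each member, and Il12b, Ifng and Csf2. One gene that this rule names is not reported here. The 4 libraries that stand apart were picked after the data were seen. Replicate numbers are shared between groups, and samples were treated as unpaired. The mean correlation of same-numbered samples was -0.17 to 0.24, which cannot show that they were unmatched. DESeq2 1.42.0 and limma 3.58.1 served as alternatives.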

Additional observations from a re-analysis of the deposited data

How the results depend on the processing

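Il12a against healthy joints was lower under every alternative run. Its call held throughout for siMMP13, loaded untreated and all loaded joints, and for siNEG it ended at -0.26, -0.24 and -0.27 with Gapdh, Gusb or Pgk1 left out of the scaling and at -0.31 after the negative control mean was subtracted. Values of the other members moved with the scaling, and the cause was not tested. In what follows, values are log2 fold changes against healthy joints unless another group is named.

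With TMM scaling, Il15 was -0.39 (siMMP13), -0.61 (siNEG), -0.20 (loaded untreated) and -0.40 (all loaded). Il7 was -0.040, -0.068, -0.18 and -0.095 in the same order, and 0.028 for siMMP13 against siNEG. Csf1 was -0.038 for siMMP13, and Il12a was 0.033 for siMMP13 against loaded untreated joints. With DESeq2 size factors, Il15 was -0.32, -0.57, -0.14 and -0.35, and Il7 was -0.022 (siNEG), -0.11 (loaded untreated), -0.038 (all loaded) and 0.044 (siMMP13 against siNEG). Il12a was 0.034 there for siMMP13 against loaded untreated joints. With total counts, Il15 was -0.41, -0.54, -0.092 and -0.35, Il7 was -0.078 (siMMP13), -0.062 (loaded untreated) and -0.044 (all loaded), and Csf1 was -0.049 (siMMP13). Against loaded untreated joints, Il7 was -0.016 for siMMP13 and Csf1 was -0.0046 for siNEG. With the DESeq2 Wald test, Il15 was -0.31, -0.59, -0.15 and -0.35, and Il7 was -0.0062, -0.025, -0.11 and -0.046. For siMMP13, Il7 was 0.019 against siNEG and Il12a was 0.032 against loaded untreated joints.

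Leaving single housekeeping genes out moved Csf1 with siNEG past the threshold, at 0.57 (Gapdh), 0.55 (Pgk1) and 0.46 (Tubb5), and Csf1 over all loaded joints at 0.41 (Pgk1). Il15 with siNEG passed at -0.45 (Hprt) and -0.40 (Tubb5). Near-zero values changed sign, for loaded untreated joints at -0.0088 (Il7, Hprt), -0.023 (Il15, Hprt) and -0.0097 (Il15, Tubb5). For siMMP13 against loaded untreated joints, Il7 was -0.045 (Cltc) and -0.047 (Gusb) and Il12a was 0.011 (Hprt), 0.024 (Pgk1) and 0.016 (Tubb5). Subtracting the negative control mean gave -0.051 for Il7 there. A fit of the compared groups alone passed Csf1 at 0.51 (siNEG) and 0.47 (loaded untreated), and Il15 at -0.36 (siNEG).

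Without the 4 libraries that stand apart, an alternative chosen after seeing the data, Csf1 passed at 0.45 (siMMP13), 0.48 (siNEG), 0.44 (loaded untreated) and 0.46 (all loaded), and Il15 at -0.42 (siNEG). Il7 was -0.15 (siMMP13) and -0.0032 (all loaded), and Il15 was -0.011 (loaded untreated). For siMMP13 against loaded untreated joints, Csf1 was 0.013, Il7 -0.16 and Il12a 0.095.

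Leaving out 1 sample at a time gave Il12a with siNEG -0.33 to -0.26, Il15 with siNEG -0.43 to -0.31 and Csf1 with siNEG 0.45 to 0.60. For loaded untreated joints it gave Csf1 0.39 to 0.56 and Il15 -0.0099 to 0.092, and over all loaded joints Csf1 0.35 to 0.48. Against loaded untreated joints it gave Il7 -0.032 to 0.076 and Il12a -0.073 to 0.047 for siMMP13, and Csf1 -0.031 to 0.12 for siNEG.

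With the replicate number as a block, Il12a was -0.53 (siMMP13), -0.31 (siNEG) and -0.52 (loaded untreated), and no member's call changed. Of the 48 samples, 5 correlated best with a sample of their own number. The count of genes called for siMMP13 against siNEG was 12, and 2 with the block. It was 3 without Gusb or Hprt in the scaling, 2 without Tubb5, 4 with no count filter or with the compared groups alone, 5 without the 4 libraries and 2 to 13 without single samples. For siMMP13 against loaded untreated joints it was 7, and 13 with TMM, DESeq2 size factors or total counts, 17 with the Wald test, 19 with Myl2 as a covariate and 4 without Tubb5. For siNEG against loaded untreated joints it was 3 (16 genes at an unadjusted p under 0.05), 0 with TMM, DESeq2 size factors, total counts or the Wald test and without Gusb or Tubb5, and 1 to 4 without single samples.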
